A study of Mus musculus with 4 samples.

Results

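The 10 genes examined encode proteins that store maternal mRNA in the oocyte and keep it silent: Zar1, Zar1l, Ybx2, Cpeb1, Lsm14a, Lsm14b, Ddx6, Eif4enif1, Patl2 and Dazl. They were chosen by name, as the rows of the count tables with these 10 symbols, of 53677 symbols in all, and all 10 passed the filter on low counts that 17879 genes passed. Mouse oocytes were taken at the germinal vesicle (GV) stage, arrested in meiotic prophase before maturation, 48 h after the females were primed with 7.5 IU of the gonadotropin PMSG to grow their follicles. One group was the control (Ctrl), and in the other Ell3, which encodes an elongation factor for RNA polymerase II, was knocked down (Ell3 KD). Each group had 2 Smart-seq2 libraries of 5 pooled oocytes. The sources used here do not give mouse strain or age, the knockdown agent or what the control oocytes received.

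Fully grown oocytes stop transcribing and live on mRNA made earlier. Much of it is held with short poly(A) tails in ribonucleoprotein particles and is translated only when meiosis resumes or after fertilization. Repressor proteins bind the 3′ ends or the caps of these messages, and cytoplasmic polyadenylation later releases some of them.

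The Ctrl libraries held 45131278 and 48669267 counts and the deeper Ell3 KD libraries 89632815 and 65722415, without overlap. Counts of the targeted gene, Ell3, were 371 and 483 in the Ctrl libraries against 255 and 181 in the Ell3 KD libraries, a log2 fold change of -1.66 ± 0.14 (SE; adjusted p = 6.04e-10 by edgeR). The 10 oocyte markers examined summed to between 29388 and 30224 CPM (counts scaled to library size with TMM factors) in all 4 libraries. That sum hides changes in both directions (log2 fold changes, adjusted p under 0.05 by edgeR). Nobox (-0.27), Nlrp5 (-0.23), Gdf9 (-0.20) and Zp1 (-0.12) were lower in Ell3 KD, and H1foo (0.20) and Oog1 (0.13) were higher. Bmp15, Zp2, Zp3 and Figla did not pass the test. The 14 cumulus and granulosa markers summed to between 51.0 and 53.5 CPM in Ell3 KD and between 56.2 and 58.9 CPM in Ctrl, mostly from Nr5a2 and Cyp19a1. Nr5a2 fell, from 26.4 ± 0.249 to 22.4 ± 0.135 CPM (SD, n = 2; adjusted p = 0.00391 by edgeR), and Inha rose, from 1.04 ± 0.137 to 2.33 ± 0.209 CPM (SD, n = 2; adjusted p = 3.63e-04 by edgeR). Between 2 and 4 of the 14 had no count in a library. Amh, Amhr2 and Foxl2 had none in either Ctrl library and at most 9 in an Ell3 KD library, while Wt1 had 3 and 11 in Ctrl and none in Ell3 KD. The part of such cells in the results was not tested. Nothing says that replicates came from separate animals, and p-values measure only the spread between the 4 libraries, part or all of which may be technical.

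The storage genes changed in both directions in Ell3 KD, and by small amounts. Zar1l, Ybx2, Lsm14b and Dazl were higher, Patl2, Ddx6, Cpeb1 and Eif4enif1 were lower, and Zar1 and Lsm14a did not pass the test. Of the 10, Zar1l rose most, by 1.30-fold, and Patl2 fell most, by 1.35-fold. The 8 genes called of 10 stand beside 42.9% called of all genes tested and 59.7% of the 3886 genes at a mean of 50 CPM or more, a level that every member except Ddx6 (49.4 CPM) reached. By direction, 21.1% of all genes tested were called higher and 21.8% lower, and at 50 CPM or more 36.4% were higher and 23.2% lower. The members' median log2 fold change was -0.03, against -0.0024 over all genes tested, and their median absolute change was 0.14, against 0.25 over all genes tested and 0.12 over those at 50 CPM or more. With an assumed biological coefficient of variation of 0.2 in place of the fitted 0.0421, edgeR called 0 of the 10, and 0 had an unadjusted p under 0.05, whereas DESeq2 with its own fitted spread called 4 higher and 4 lower. Because CPM is a share of each library, these data do not show whether oocytes held more or less mRNA in all. Fewer cells of a type and less RNA per cell cannot be told apart in pooled oocytes.

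**Figure D1:**
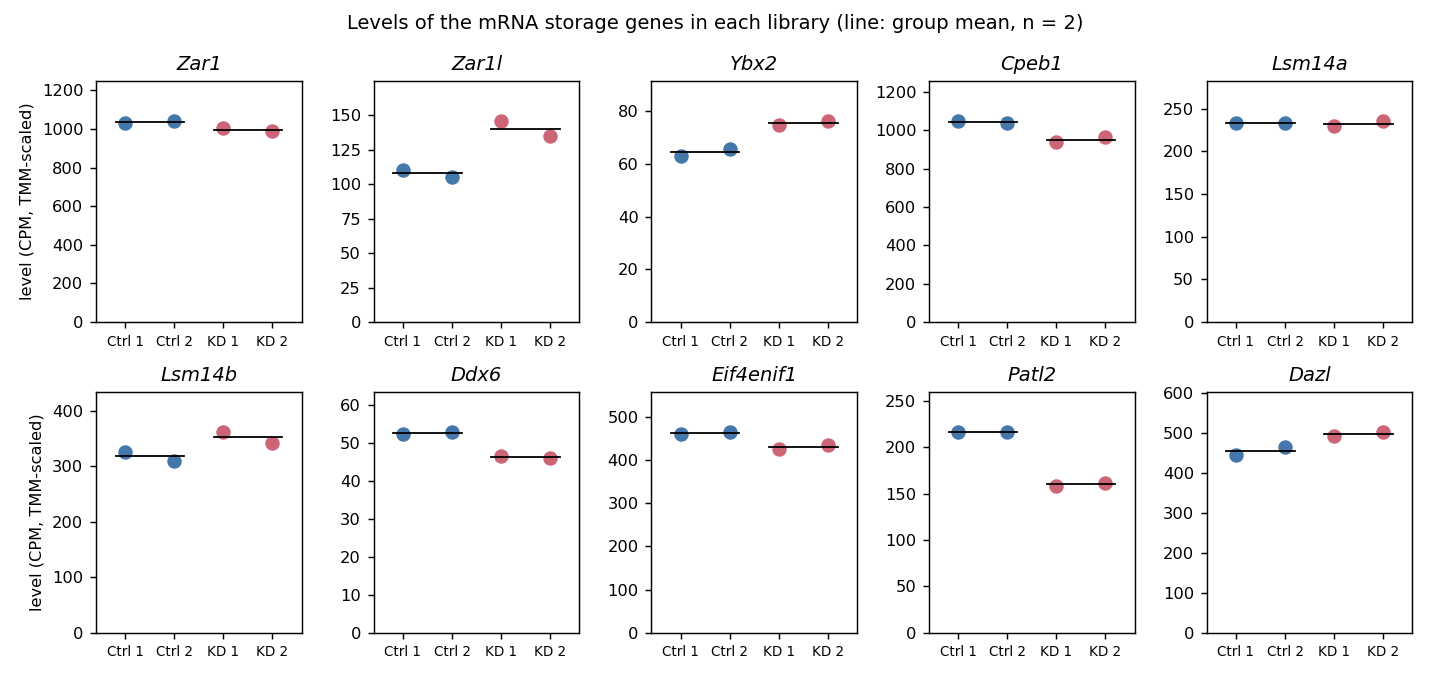
Level of each of the 10 storage genes in each library (CPM scaled by TMM, linear axes from 0). Points are libraries, blue for Ctrl and red for Ell3 KD (KD), and lines are group means (n = 2). Only for Lsm14a do the groups overlap.

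ZAR1 and its paralog ZAR1L are zinc-finger proteins of the oocyte that bind maternal mRNAs and are needed for their storage and translation. Zar1 stood at 1032 and 1039.5 CPM in Ctrl and at 1002 and 988.2 CPM in Ell3 KD. Both Ell3 KD libraries lay below both Ctrl libraries, but the log2 fold change of -0.06 ± 0.03 missed the threshold (adjusted p = 0.0890 by edgeR). With the trend of each library on transcript length and GC content removed it passed, at -0.09 ± 0.02 (adjusted p = 0.00540 by edgeR). Zar1l stood at 110.3 and 105.4 CPM in Ctrl and at 145.6 and 134.6 CPM in Ell3 KD. The gap between the groups, 0.29 on the log2 scale, was larger than the distance between the Ctrl libraries (0.07) or between the Ell3 KD libraries (0.11). Its log2 fold change was 0.38 ± 0.04 (95% interval 0.29 to 0.46, adjusted p = 6.02e-08 by edgeR), and 0.25 ± 0.04 with the length and GC trend removed (adjusted p = 4.38e-05 by edgeR). Per kb of main coding transcript, the level of Zar1 was 5.86 and 6.18 times that of Zar1l in the Ctrl libraries and 4.31 and 4.60 times in Ell3 KD, so the ratio was lower in both Ell3 KD libraries.

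Zar1 lies on chromosome 5 from 72576806 to 72581254 and Zar1l on the same chromosome from 150507055 to 150518164, both on the minus strand of GRCm38. Of the windows of 50 bases in the Zar1 transcript, 22.8% also occur in transcripts of the predicted genes Gm15847 or Gm42668. These had at most 6.37 and 0.387 CPM in any library, so how such reads were assigned bears on few counts credited to the copies, while reads withheld from Zar1 cannot be counted here. The annotated 3′ UTR of Zar1l has only 14 bases, and reads of a longer UTR, if there is one, may not be in its counts. The promoters of both paralogs, whose values differed as above, and of Patl2, which fell most, are shown as the 250 bases before the RefSeq start on GRCm38.p6, read along the gene. The GENCODE locus of Zar1 reaches 72581254, beyond that RefSeq start, so most of its stretch lies within the annotated gene. Capitals mark matches on either strand. The E-box was searched as CANNTG. The NOBOX element was searched as TAATTG. For the other motifs, the CCAAT box was searched as its own letters and the TATA box as TATAAA.
Zar1, chr5:72581085-72581334, minus strand: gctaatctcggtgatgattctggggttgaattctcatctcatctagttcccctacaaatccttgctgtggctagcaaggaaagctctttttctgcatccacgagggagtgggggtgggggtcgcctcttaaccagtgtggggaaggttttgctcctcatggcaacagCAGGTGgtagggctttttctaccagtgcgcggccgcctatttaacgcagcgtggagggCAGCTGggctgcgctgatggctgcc
Zar1l, chr5:150518160-150518409, minus strand: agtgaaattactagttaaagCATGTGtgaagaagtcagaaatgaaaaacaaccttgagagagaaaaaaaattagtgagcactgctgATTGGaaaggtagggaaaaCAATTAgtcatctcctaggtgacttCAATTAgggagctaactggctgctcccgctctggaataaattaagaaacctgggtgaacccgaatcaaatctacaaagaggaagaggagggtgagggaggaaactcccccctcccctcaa
Patl2, chr2:122186190-122186439, minus strand: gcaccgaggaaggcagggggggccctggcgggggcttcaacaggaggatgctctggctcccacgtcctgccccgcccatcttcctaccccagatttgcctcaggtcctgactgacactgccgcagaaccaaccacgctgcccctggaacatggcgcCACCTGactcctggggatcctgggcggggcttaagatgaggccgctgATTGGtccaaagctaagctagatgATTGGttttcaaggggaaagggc

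E-boxes are the sites of basic helix-loop-helix factors such as the oocyte regulator FIGLA, and the NOBOX element is bound by the oocyte homeobox factor NOBOX. Zar1 had 2 E-boxes, both in the part within its GENCODE locus, and none of the other motifs. The stretches of Cpeb1 and Lsm14a also lie within their GENCODE loci. Zar1l had 1 E-box, 2 NOBOX elements and 1 CCAAT box, and Patl2 had 1 E-box and 2 CCAAT boxes. RefSeq promoters were found for 9 of the 10 genes (all but Ddx6), which had 13 promoters, and 8 of the 13 held an E-box, against 60.2% of 15042 promoters of genes tested. A NOBOX element was in 1 of the 13, that of Zar1l, against 5.07% of all promoters. A CCAAT box was in 6 of the 13, against 35.1%, and a TATA box in 1, that of Cpeb1, against 7.65%. By base composition, 42.8% of the Zar1l promoter was G or C, against 55.6% for Zar1 and 62.4% for Patl2. These matches describe letters and show no binding.

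Patl2 encodes an oocyte RNA-binding protein of the PAT1 family that represses translation, and its loss causes arrest of oocyte maturation. On GRCm38 it occupies chromosome 2, bases 122120108 to 122186189, minus strand. Its level was 216.6 and 216.0 CPM in Ctrl and 158.7 and 161.4 CPM in Ell3 KD. The replicates were within 0.0039 of each other in Ctrl and within 0.02 in Ell3 KD on the log2 scale, and the groups were 0.42 apart. Patl2 fell by 0.43 ± 0.03 on the log2 scale (95% interval -0.51 to -0.36, adjusted p = 2.37e-10 by edgeR), and 2.91% of genes at 50 CPM or more had an absolute change as large or larger. Its widely expressed paralog Patl1, a decapping factor of P-bodies (cytoplasmic granules of repressed mRNA and decay enzymes), stood at 14.0 ± 0.355 and 14.2 ± 0.149 CPM (SD, n = 2) and missed the threshold (adjusted p = 0.874 by edgeR). The level of Patl2 per kb of main coding transcript was 27.3 and 26.3 times that of Patl1 in Ctrl and 19.5 and 19.6 times in the Ell3 KD libraries.

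**Figure D2:**
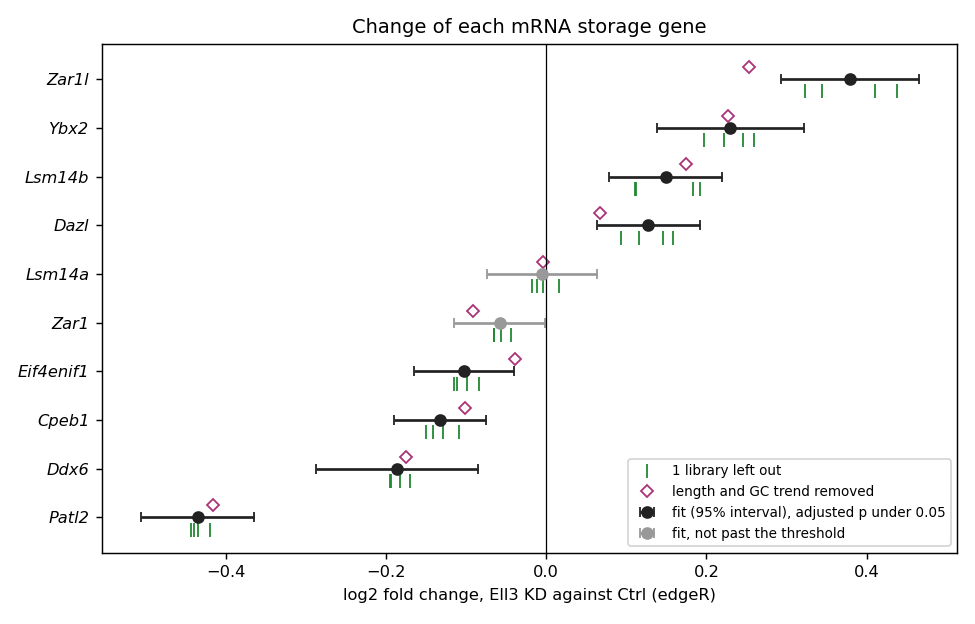
Log2 fold change of each storage gene, Ell3 KD against Ctrl, with its 95% interval (circles, grey for Zar1 and Lsm14a, which did not pass the test). Green ticks leave out 1 library each and diamonds have the length and GC trend removed, which brings Eif4enif1 to -0.04 and Dazl to 0.07.

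DDX6, LSM14A, LSM14B and the eIF4E transporter EIF4ENIF1 form the core of repressed particles: DDX6 is an RNA helicase, the LSM14 proteins bind it, and EIF4ENIF1 links it to the cap-binding protein. Ddx6 stood at 52.4 and 52.8 CPM in Ctrl and at 46.6 and 45.9 CPM in Ell3 KD, with the Ell3 KD libraries lower and no overlap. It fell by 0.19 ± 0.05 on the log2 scale (adjusted p = 0.00334 by edgeR). Eif4enif1 stood at 460.7 and 465.0 CPM in Ctrl and at 426.2 and 435.9 CPM in Ell3 KD. It fell by 0.10 ± 0.03 (adjusted p = 0.00761 by edgeR), a call that was lost without Ell3 KD replicate 1 (-0.08, adjusted p = 0.126 by edgeR) and with the length and GC trend removed (-0.04 ± 0.03, adjusted p = 0.261 by edgeR). In the Ddx6 transcript, 4.49% of windows of 50 bases also occur in the predicted gene Gm13410, which had at most 0.588 CPM.

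Of the LSM14 paralogs 1 was called, and the difference between their changes was not tested. Lsm14a, the general form, stood at 233.9 and 232.9 CPM in Ctrl and at 229.8 and 235.4 CPM in Ell3 KD. Its groups overlapped, and its log2 fold change was -0.0050 (95% interval -0.07 to 0.06, adjusted p = 0.921 by edgeR). Lsm14b, the form abundant in oocytes and needed for their storage of mRNA, stood at 325.7 and 310.2 CPM in Ctrl and at 362.0 and 342.9 CPM in Ell3 KD. It rose by 0.15 ± 0.03 on the log2 scale (adjusted p = 9.85e-04 by edgeR). The gap between the groups, 0.07, was about as wide as the distances between replicates (0.07 in Ctrl and 0.08 in Ell3 KD), and without Ell3 KD replicate 1 the adjusted p was 0.0422 (edgeR). Per kb of main coding transcript, Lsm14b stood at 1.60 and 1.53 times Lsm14a in Ctrl and at 1.81 and 1.67 times in Ell3 KD. Of the merged exons of Lsm14a, 7.40% overlap genes on the opposite strand, Gm12764 and 2310043P16Rik, which had at most 16 and 6 counts.

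CPEB1 and DAZL bind 3′ UTRs of dormant mRNAs and govern their repression and their later translation, and YBX2 (MSY2) is a germ cell Y-box protein that coats and stabilizes mRNA. Cpeb1, at 1046 and 1037 CPM in Ctrl and 936.5 and 964.4 CPM in Ell3 KD, was lower in both Ell3 KD libraries. It fell by 0.13 ± 0.03 on the log2 scale (adjusted p = 4.10e-04 by edgeR). Its paralogs Cpeb2, Cpeb3 and Cpeb4 did not pass the test, and per kb of main coding transcript Cpeb1 stood at 66.6 and 62.5 times Cpeb4 in Ctrl and at 55.1 and 58.3 times in Ell3 KD. Dazl stood at 445.6 and 466.2 CPM in Ctrl and at 492.8 and 503.4 CPM in Ell3 KD, higher in both Ell3 KD libraries. It rose by 0.13 ± 0.03 (adjusted p = 0.00173 by edgeR), and by 0.07 ± 0.03 with the length and GC trend removed (adjusted p = 0.0445 by edgeR). Of its longest transcript 37.0% is G or C, the lowest share among the 10 genes.

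Ybx2 stood at 63.0 and 65.8 CPM in Ctrl and at 74.9 and 76.3 CPM in Ell3 KD. The Ell3 KD libraries were above both Ctrl libraries by more than the distance between replicates. It rose by 0.23 ± 0.04 on the log2 scale (adjusted p = 1.75e-04 by edgeR). Its longest transcript has the highest G and C share of the 10, 63.4%. The somatic paralog Ybx1 rose too, from 133.9 ± 5.49 to 146.5 ± 3.04 CPM (SD, n = 2; log2 fold change 0.13 ± 0.04, adjusted p = 0.00822 by edgeR). Measured per kb of main coding transcript, Ybx2 was below Ybx1 in every library, at 0.472 and 0.465 of its level in Ctrl and 0.505 and 0.499 in Ell3 KD.

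**Figure D3:**
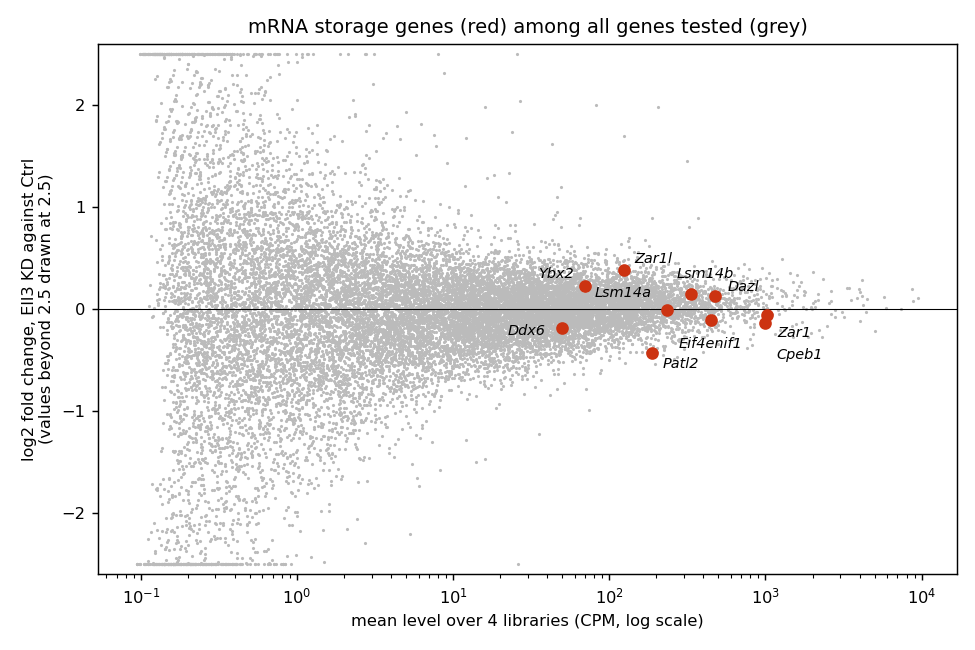
Log2 fold change against mean level (CPM, log axis) for the 17879 genes tested (grey) and the 10 storage genes (red). Zar1l (0.38) and Patl2 (-0.43) have the largest absolute changes of the 10.

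The groups did not overlap in CPM for 9 of the 10 genes, all but Lsm14a, which stands beside 70.7% of all genes tested and 80.6% of those at 50 CPM or more. Their combined share of all raw counts was 0.404% and 0.405% in the Ctrl libraries and, lower, 0.383% and 0.382% in the Ell3 KD libraries. Unlike CPM, this share is not scaled by the TMM factors, which were 1.013 and 1.015 in Ctrl and 0.989 and 0.984 in Ell3 KD. It therefore differs more between the groups than the summed CPM does. Zar1 and Cpeb1, the most abundant of them, weigh most in that sum.

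Levels between genes were compared per kb of the main coding transcript of each gene in GENCODE M21. In Ctrl, Zar1 led at 724.9 ± 3.53 CPM per kb (SD, n = 2), followed by Cpeb1 at 334.9 ± 2.02 and Dazl at 153.2 ± 4.88. Eif4enif1 (124.7 ± 0.827), Lsm14b (123.9 ± 4.28) and Zar1l (120.5 ± 3.85) were close. Lsm14b overlapped both of the others, while the Eif4enif1 libraries (124.1 and 125.3) lay above those of Zar1l (123.2 and 117.8). Below them came Patl2 (88.9 ± 0.171), Lsm14a (79.3 ± 0.245), Ybx2 (38.5 ± 1.18) and Ddx6 (8.67 ± 0.0526). In Ell3 KD the 3 middle genes were apart, with Zar1l at 156.6 ± 8.70, Lsm14b at 137.3 ± 5.26 and Eif4enif1 at 116.1 ± 1.84 CPM per kb, and Patl2 (65.7 ± 0.778) lay below Lsm14a (79.0 ± 1.36). The order depends on the length used. Per kb of all exons merged, Zar1 (299.0), Cpeb1 (248.5), Ybx2 (34.2) and Ddx6 (6.55) kept their places in Ctrl, while Eif4enif1 (72.7) fell behind Patl2 (88.9), and Lsm14a (38.0) stayed below Patl2 in both groups. By that length Zar1l (120.5) was above Lsm14b (109.9) and Eif4enif1 in Ctrl already. Ratios between genes move too: per kb of merged exons, Zar1 stood at 2.42 and 2.55 times Zar1l in Ctrl, and Lsm14b at 2.95 and 2.83 times Lsm14a. The relative difference in a ratio between Ctrl and Ell3 KD is the same by either length.

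**Figure D4:**
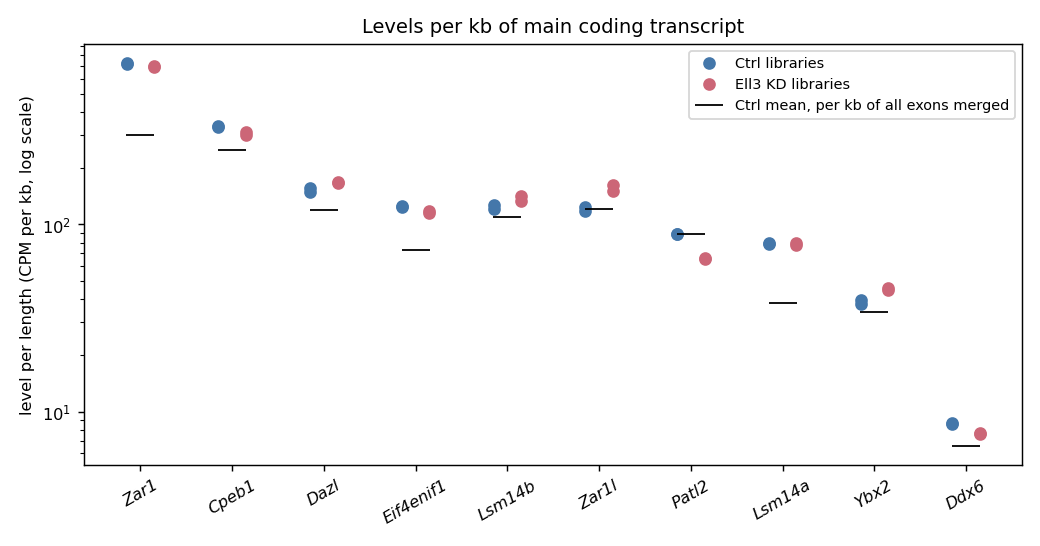
Levels of the storage genes in CPM per kb of main coding transcript (log axis). Points are libraries, blue for Ctrl and red for Ell3 KD, and black dashes are the Ctrl mean per kb of all exons merged. Zar1 is highest and Ddx6 lowest by either length, and by main transcript Zar1l lies above Lsm14b and Eif4enif1 in Ell3 KD, as it does in Ctrl by merged exons.

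The 3′ ends of the members' own mRNAs were searched for the elements through which stored mRNAs are controlled. A cytoplasmic polyadenylation element (CPE, TTTTAT or TTTTAAT) is bound by CPEB1 and acts together with the polyadenylation signal (AATAAA or ATTAAA). Of 9 members with at least 100 bases of annotated 3′ UTR (all but Zar1l), 2 held a CPE in the last 100, against 19.2% of 13029 3′ UTRs of genes tested. They are shown because Ybx2 and Lsm14a were the only members with a CPE there, with CPEs and polyadenylation signals in capitals, taken from GENCODE M21 transcripts (T stands for U).
Ybx2: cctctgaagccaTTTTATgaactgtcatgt
Lsm14a: tgtTTTTAATAAAggccatggAATAAAgag

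The CPE of Lsm14a starts 42 bases from the end of its transcript, overlaps a polyadenylation signal and lies 11 bases before the signal nearest the end. Its last 100 bases hold 3 such signals, and the remaining one lies upstream of the stretch shown. That of Ybx2 starts 62 bases from the end, and no polyadenylation signal was found in those 100 bases. Of these genes, both with a CPE, Ybx2 rose in Ell3 KD and Lsm14a did not pass the test. A link between the element and the changes was not tested. Upstream of the last 100 bases, CPE letters also occurred in the 3′ UTRs of Cpeb1 (4 matches), Lsm14a (2), Lsm14b (2), Ddx6 (7), Eif4enif1 (1) and Dazl (6), whereas Zar1 and Patl2 had none in UTRs of 146 and 366 bases. The number of matches grows with UTR length, which was 4250 bases for Ddx6. A DAZL motif (TTTGTTT or TTTCTTT) was in the last 100 bases of 2 of 9 members, Ddx6 and Eif4enif1 (10.1% of UTRs), and a Pumilio motif (TGTANATA) in 0 of 9 (4.84%).

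Genes that act with the members also went both ways. Of 79 genes tested in 5 related lists, 22 were higher and 20 lower, with a median log2 fold change of 0.03. The 53.2% called stand beside 42.9% of all genes tested and 59.7% of those at 50 CPM or more. The share called ran from 26.7% for cytoplasmic polyadenylation to 77.8% for dormant messages. All dormant messages but Sycp3 and Wee1 had a mean of 50 CPM or more, where 36.4% of genes were called higher and 23.2% lower. Over all genes tested these shares were 21.1% and 21.8%. Among 16 genes of decapping and P-bodies, 5 rose and 4 fell (median -0.01), but without Ell3 KD replicate 1 only 2 fell. The Lsm ring that binds shortened mRNA and activates decapping had 3 risers of 7: Lsm3, from 233.7 ± 0.766 to 320.4 ± 1.89 CPM (log2 fold change 0.46 ± 0.03, adjusted p = 2.86e-11 by edgeR), Lsm5 (0.33) and Lsm7 (0.22). Lsm1 fell by 0.14, and Lsm2, Lsm4 and Lsm6 did not pass the test. Dcp2, the decapping enzyme, rose by 0.27 ± 0.05 (adjusted p = 3.59e-05 by edgeR), and the most abundant gene of the list, its partner Dcp1a, at 320.7 ± 12.0 and 308.5 ± 1.58 CPM, missed the threshold (adjusted p = 0.179 by edgeR). The decapping enhancer genes Edc3 and Edc4 and the decapping cofactor gene Dcp1b also fell. Edc3 fell by 0.83 ± 0.18 on the log2 scale and Dcp1b by 0.78 ± 0.21, both from under 4 CPM (adjusted p = 5.53e-04 and adjusted p = 0.00432 by edgeR), and the more abundant Edc4 by 0.16 ± 0.04 (adjusted p = 7.47e-04 by edgeR). Lsm7, Lsm1, Edc3, Dcp1b and Edc4 were singled out after their values were seen.

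Of 15 genes of cytoplasmic polyadenylation, 2 rose, 2 fell and 11 did not pass the test (median 0.06), with 1 falling without Ctrl replicate 1 or without Ell3 KD replicate 2. Pabpn1l, an embryonic poly(A)-binding protein of the oocyte, rose from 608.3 ± 8.41 to 724.4 ± 18.2 CPM (0.25 ± 0.03, adjusted p = 1.85e-07 by edgeR). Sympk, the scaffold symplekin, rose by 0.31 ± 0.05, and Parn, a deadenylase that opposes tail growth, fell by 0.25 ± 0.05 (adjusted p = 3.60e-04 by edgeR). Pabpc4, at 297.9 ± 4.72 and 313.4 ± 0.694 CPM, and Papd4, the cytoplasmic poly(A) polymerase, singled out after its value was seen, at 51.7 ± 1.94 and 52.3 ± 0.598 CPM, missed the threshold (adjusted p = 0.0648 by edgeR and adjusted p = 0.815).

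The list of cap-binding proteins, the partners of EIF4ENIF1, also holds proteins that bind those cap-binding proteins. Of 8 genes tested 2 rose, the cap-binding Eif4e and Eif4e1b (median of the list 0.03). The 2 that fell were not cap-binding: Eif4ebp2, and Gigyf1 (log2 fold change -0.44), singled out after its value was seen. Fewer fell without Ctrl replicate 1. Eif4e1b, the oocyte form of eIF4E, stood at 189.2 and 184.8 CPM in Ctrl and at 254.6 and 248.2 CPM in Ell3 KD. It rose by 0.43 ± 0.03 on the log2 scale (adjusted p = 2.75e-10 by edgeR) while Eif4enif1 fell, a smaller change whose call was lost in some settings, as given above. Eif4enif1 per kb of main coding transcript was at 1.40 and 1.44 times the level of Eif4e1b in Ctrl and at 0.961 and 1.01 times in Ell3 KD (0.862 and 0.891, then 0.593 and 0.622, per kb of merged exons). The general Eif4e rose by 0.16 ± 0.03, the translation inhibitor gene Eif4ebp2 fell by 0.42 ± 0.09 (adjusted p = 2.45e-04 by edgeR), and Eif4e3, the most abundant of the list, missed the threshold (adjusted p = 0.250 by edgeR).

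Of 25 other RNA-binding regulators tested, 5 rose and 8 fell (median 0.02), and 3 rose without Ctrl replicate 1 or without Ell3 KD replicate 2. Igf2bp3, a reader that stabilizes mRNA, fell from 81.2 ± 0.912 to 60.2 ± 4.11 CPM (-0.43 ± 0.05, adjusted p = 6.19e-08 by edgeR), and the stress granule gene G3bp1 fell by 0.27 ± 0.05. Dazap1, which encodes a partner of DAZL, rose by 0.57 ± 0.10 from a low level of 8.80 CPM (adjusted p = 4.57e-05 by edgeR). The most abundant pair, Dazap2 and G3bp2, missed the threshold (adjusted p = 0.188 by edgeR and adjusted p = 0.683).

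Messages reported to be stored and controlled through CPEB1 or DAZL made up the last list, of which 9 of 18 rose and 5 fell, with a median of 0.08. Sycp3 of the synaptonemal complex went from 29.0 and 32.6 CPM in Ctrl to 56.1 and 61.1 CPM in Ell3 KD, and the oocyte-secreted protein gene Oosp1 and Btg4, whose protein recruits the CCR4-NOT deadenylase, had log2 fold changes of 0.46 and 0.36 (adjusted p = 8.52e-11 and adjusted p = 1.12e-10 by edgeR). Wee1, a kinase gene that restrains CDK1, singled out after its value was seen, went from 24.9 and 24.6 CPM in Ctrl to 11.7 and 13.6 CPM in Ell3 KD, the largest absolute change of the 79 genes (log2 fold change -0.97 ± 0.08, adjusted p = 4.56e-10 by edgeR). Bub1b, a checkpoint kinase gene, fell by 0.14 ± 0.03 (adjusted p = 8.30e-05 by edgeR), and cyclin B1 (Ccnb1), the most abundant of the list, did not pass the test. Dcp1a and Dcp2 are counted in this list and in the decapping list, and Ddx4, which fell by 0.18, in this list and among the other RNA-binding regulators.

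**Figure D5:**
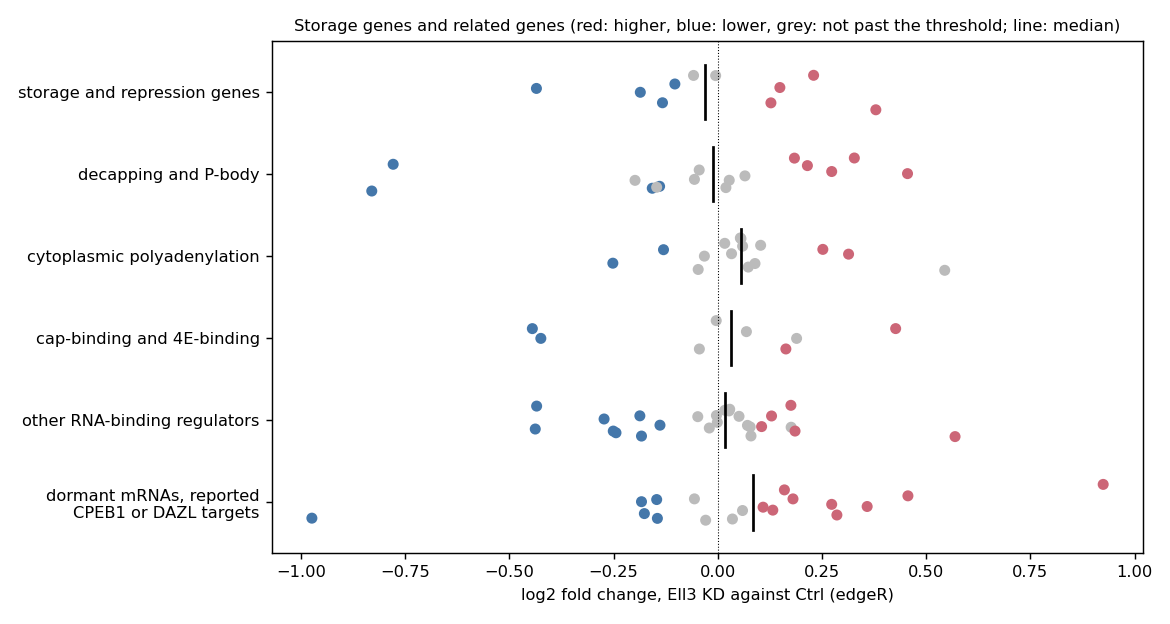
Log2 fold changes, Ell3 KD against Ctrl, of the 10 storage genes and of 5 related lists. Points are genes (red higher, blue lower, grey not past the threshold) and lines are medians, which lie between -0.03 and 0.08.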

How the data were processed

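The authors' deposited values are raw counts per gene symbol, 1 table per library. The submitters' processing notes name featureCounts, HISAT2 2.2.1.0, FastQC 0.11.5 and build mm10. Annotation, strandedness and handling of multimapping reads are not given in the sources used here. Per the labels' protocols, cDNA was amplified for 16 cycles and sequenced as 150-bp read pairs, without mention of molecular identifiers, so precision estimates cover amplified reads.

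The two-sided quasi-likelihood test of edgeR 4.0.16 (R 4.3.3; filterByExpr, TMM factors) was run on the 4 libraries. Its p-values were adjusted over 17879 genes by the Benjamini-Hochberg method, and 0.05 was the threshold for a call. Standard errors are the log2 fold change over the square root of F. A count of 0 allows up to 0.0657 CPM in the shallowest library, taking 3 counts as the limit. In simulated counts for Ell3 KD against Ctrl over 17879 genes, in which the changed genes had 5 CPM or more, edgeR recovered 70.0% of 1.2-fold and 96.0% of 1.5-fold changes. There 50 genes were changed at each fold, a far smaller share than the 42.9% called in the data. The adjustment of p-values therefore differed, and these rates may not carry over. Among the called storage genes only Zar1l and Patl2 changed by more than 1.2-fold, and recovery of smaller changes was not simulated. Chi-square per degree of freedom between replicates was 4.08 in Ctrl and 4.17 in Ell3 KD, so no library repeats another. Alternatives were RLE and upper-quartile factors, DESeq2 1.42.0, no filter, a replicate block, an assumed coefficient of variation, length and GC offsets, and each library left out. Loci, lengths and 3′ UTRs came from GENCODE M21 (GRCm38, the assembly of mm10), in which 49627 symbols matched 1 gene. Main transcripts are the longest complete basic coding ones. The length and GC offsets used the longest annotated transcript of each gene instead, coding or not.

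The members, lists and tests were chosen with earlier results of these data known. From each related list the text names the 2 most abundant genes by mean CPM and at most 3 called genes, those with the smallest p. Others are said to be singled out, are paralogs set beside a member, complete the Lsm ring (Lsm2, Lsm4 and Lsm6) or are shared between lists (Ddx4).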

Additional observations from a re-analysis of the deposited data

How the results depend on the processing

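With RLE or upper-quartile factors, DESeq2 or no filter on low counts, 4 storage genes were higher and 4 lower, as in the fit with TMM. With 1 library left out, so that the lone library of a group is assumed to vary like the other group, 4 were higher and between 3 and 4 lower, and of the related genes between 18 and 23 were higher and between 17 and 20 lower. With the assumed coefficient of variation of 0.2, 0 and 0 storage genes and 1 and 1 related genes (Sycp3 and Wee1) were called, by construction, since the changes are small for that spread; Patl2 then had an adjusted p of 0.497. Over all genes this setting called 861 higher and 1103 lower, against 3770 and 3906. With the length and GC trend removed, 4 and 4 storage genes were called, Zar1 in place of Eif4enif1. For cytoplasmic polyadenylation genes this gave 4 higher and 1 lower, against 2 and 2. The replicate numbers are not said to mark a shared animal or day, and deviations of same-numbered libraries correlated at 0.0294. With a replicate block, 4 storage genes were higher and 5 lower, Zar1 being added (edgeR adjusted p = 0.0297), and 26 and 21 related genes were called. Lsm14a, not called in any setting, was between -0.02 and 0.02. No called storage gene changed sign under these alternatives. Depth sets no limit for these genes, each with at least 2393 counts per library.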
